A study of Mus musculus with 12 samples.

Results

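The genes described here are 10 contractile genes of smooth muscle: Acta2, Actg2, Tagln, Cnn1, Tpm1, Tpm2, Myh11, Myl9, Mylk and Des. They were chosen by name, as the probe sets whose array annotation is exactly that symbol, which gave 20 probe sets for 10 genes out of 22626 probe sets and 12393 named genes on the array. Earlier results of these data were known when the genes were chosen. Each gene is given by its probe set of the highest mean over the arrays, and the other 10 probe sets are described after them. This choice of probe set used the same 12 arrays that are compared.

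Smooth muscle shortens when calcium and calmodulin switch on myosin light chain kinase, which phosphorylates the regulatory light chain of smooth muscle myosin and lets the motor pull on actin filaments that carry tropomyosin and calponin. In the gut wall these proteins fill the muscularis externa and the thin muscularis mucosae just under the crypts. Pericytes, vessel walls and the myofibroblasts around the crypts make some of them too, so that in a scraping of colon epithelium they gauge tissue from below the epithelium.

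The study put male C57BL/6 mice, aged 6 to 8 weeks, on a soya-free powdered diet for 14 days and then for 24 hours on the same powder with quercetin (6200 ppm, about 7 mg for each mouse) or without it. Quercetin is a flavonol of plants. The groups, of 3 arrays each, were POR-null mice with quercetin, POR-null mice on the control diet, wild type mice with quercetin and wild type mice on the control diet. Each array held RNA of the scraped epithelial layer of the colon from 3 pooled mice, so that a group stands for 9 mice and a replicate is a pool. POR-null mice lack cytochrome P450 reductase, the electron donor of the microsomal cytochromes P450. The labels do not say which promoter or cell type the deletion depends on. A line of this kind is known from the literature with the gene deleted in hepatocytes, and the deleted gene is not analysed here, so that the genotype labels were not checked against its signal. The comparisons set quercetin against the control diet within a genotype, POR-null against wild type within a diet, and the effects of quercetin in both genotypes against each other.

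All values are log2 signals as the authors deposited them, in which 1 unit is a doubling. Signals of different probe sets are not compared with each other, since each has its own affinity. Array medians lay between 5.90 and 5.98, and any pair of arrays correlated between 0.981 and 0.995 over all probe sets. Epithelial markers were present on every array: Krt20, a keratin of mature intestinal epithelium, ran from 12.03 to 12.53, and Vil1, villin of the brush border, from 10.36 to 10.86. The mean of 15 general epithelial genes lay between 10.97 and 11.17. Single genes of that list moved more than its mean, the widest from 9.46 to 10.67. A list of 12 pancreatic acinar genes varied between single arrays. Its 4 highest means were 9.83 in POR-null quercetin array 2, 8.89 in wild type control array 1, 7.49 in wild type control array 2 and 7.15 in wild type quercetin array 2. The other 8 had 6.06 to 6.88, and the step from 7.15 to 6.88, in POR-null quercetin array 1, was small. The differences of the 10 genes and the medians of the other lists were recomputed without each array in turn. Moves are given for the 10 genes and for some of the other lists. A list median given without a move may also depend on single arrays.

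The control of these genes is best known through serum response factor, which binds the CArG box. Promoter windows from RefSeq (GRCm38.p6, 250 bases before to 50 bases after the start of the gene) were given for 7 of the 10 genes, and those of Myl9 and Acta2 are shown because they were the only ones of the 7 with a match to a CArG box or to the looser form of it. The CArG box itself was searched under that name as its strict form, with 6 bases of A or T between CC and GG. The looser form had exactly 1 G or C among those 6 bases, so its counts do not include strict matches. Capitals mark the matches, and the windows lie at chr2:156775214-156775513 on the plus strand for Myl9 and at chr19:34255324-34255623 on the minus strand for Acta2.
Myl9: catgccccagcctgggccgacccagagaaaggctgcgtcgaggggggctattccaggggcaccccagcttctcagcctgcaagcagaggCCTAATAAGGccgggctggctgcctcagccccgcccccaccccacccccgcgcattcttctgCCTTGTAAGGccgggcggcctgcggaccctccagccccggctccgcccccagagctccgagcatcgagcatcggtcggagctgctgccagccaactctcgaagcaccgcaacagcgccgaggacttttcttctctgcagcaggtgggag
Acta2: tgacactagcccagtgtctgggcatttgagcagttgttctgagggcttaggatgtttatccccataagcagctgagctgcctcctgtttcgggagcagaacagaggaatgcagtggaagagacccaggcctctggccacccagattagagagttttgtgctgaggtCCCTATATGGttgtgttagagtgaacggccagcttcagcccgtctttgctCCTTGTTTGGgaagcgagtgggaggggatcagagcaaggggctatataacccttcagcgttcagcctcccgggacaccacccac
In Myl9 the strict match CCTAATAAGG lay at -161 to -152 from the start and the looser match CCTTGTAAGG at -99 to -90. Acta2 held the looser matches CCCTATATGG at -84 to -75 and CCTTGTTTGG at -34 to -25. On both strands, the strict form occurred in 1.63% of 32851 promoter windows and in 1 of the 7, and the looser form in 8.50% of all windows and in 2 of the 7. The TEAD motif CATTCC was in 14.7% of windows and in 3 of the 7, TATAAA in 13.6% and in 0 of the 7, and the E box CANNTG in 72.3% and in 6 of the 7. A match is a string of letters and not a binding site, and with 7 windows these counts describe the sequences only.

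Among the actins, Actg2, the gamma actin of enteric smooth muscle, had 7.63, 7.37 and 6.71 in POR-null quercetin arrays, 7.28, 7.65 and 5.02 in POR-null control arrays, 5.29, 7.87 and 10.07 in wild type quercetin arrays, and 4.72, 4.83 and 4.77 in wild type control arrays. The wild type control pools were low and close together, while the wild type quercetin pools ran from just above them to the highest value of the gene. Acta2, the alpha actin that vessels and myofibroblasts also make, had 9.61, 9.00 and 9.08 in POR-null quercetin arrays, 9.41, 9.80 and 7.95 in POR-null control arrays, 8.09, 9.64 and 11.29 in wild type quercetin arrays, and 8.26, 7.61 and 7.28 in wild type control arrays. The same pools were low and high as for Actg2, but here the lowest wild type quercetin pool and the lowest POR-null control pool fell below the highest wild type control pool.

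The actin-binding proteins followed the same order. Tagln, transgelin or SM22, which cross-links actin, had 8.80, 8.06 and 8.52 in POR-null quercetin arrays, 8.34, 8.56 and 6.56 in POR-null control arrays, 6.63, 8.65 and 10.81 in wild type quercetin arrays, and 6.47, 5.97 and 5.85 in wild type control arrays. Cnn1, calponin, which restrains the myosin motor on actin, had 7.74, 7.16 and 7.15 in POR-null quercetin arrays, 7.27, 7.62 and 5.53 in POR-null control arrays, 5.77, 7.56 and 10.74 in wild type quercetin arrays, and 5.80, 5.17 and 5.26 in wild type control arrays. For Tagln every wild type control pool lay below every pool of the other 3 groups, and for Cnn1 the lowest wild type quercetin and POR-null control pools lay within the wild type control range.

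Tropomyosins wind along the actin filament and gate access of myosin. Tpm2 had 8.88, 8.89 and 8.58 in POR-null quercetin arrays, 9.09, 9.66 and 7.38 in POR-null control arrays, 7.46, 9.09 and 10.89 in wild type quercetin arrays, and 7.38, 7.39 and 7.30 in wild type control arrays. Tpm1, whose isoforms are made in many cell types besides muscle, had 9.18, 9.07 and 9.46 in POR-null quercetin arrays, 9.29, 9.33 and 9.23 in POR-null control arrays, 9.39, 9.30 and 10.39 in wild type quercetin arrays, and 9.23, 9.20 and 9.12 in wild type control arrays. Tpm2 split the pools as the actins did, whereas for Tpm1 11 pools lay close together and wild type quercetin array 3 alone stood above them.

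Of the motor, Myh11, the heavy chain of smooth muscle myosin, had 7.77, 6.92 and 6.84 in POR-null quercetin arrays, 7.74, 7.27 and 5.60 in POR-null control arrays, 5.64, 7.48 and 10.23 in wild type quercetin arrays, and 5.31, 5.36 and 5.11 in wild type control arrays. Myl9, its regulatory light chain, had 7.96, 7.51 and 7.35 in POR-null quercetin arrays, 7.91, 8.10 and 5.58 in POR-null control arrays, 6.23, 8.12 and 10.02 in wild type quercetin arrays, and 5.68, 5.31 and 5.11 in wild type control arrays. For both chains the wild type control pools were low, and the low pool of each of the wild type quercetin and POR-null control groups was near them.

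Mylk, the kinase that phosphorylates the light chain and that nonmuscle cells also express, had 9.20, 9.06 and 8.80 in POR-null quercetin arrays, 9.29, 9.20 and 8.35 in POR-null control arrays, 8.17, 9.03 and 10.67 in wild type quercetin arrays, and 7.91, 8.90 and 8.75 in wild type control arrays. Its groups overlapped in every comparison, and wild type control arrays 2 and 3, low for the actins, were not low for Mylk. Des, desmin, the intermediate filament of muscle, had 7.72, 7.35 and 7.44 in POR-null quercetin arrays, 7.29, 7.92 and 6.78 in POR-null control arrays, 6.71, 7.73 and 9.69 in wild type quercetin arrays, and 6.60, 6.65 and 6.56 in wild type control arrays. Desmin split the pools as the actins did, over a smaller span.

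**Figure D1:**
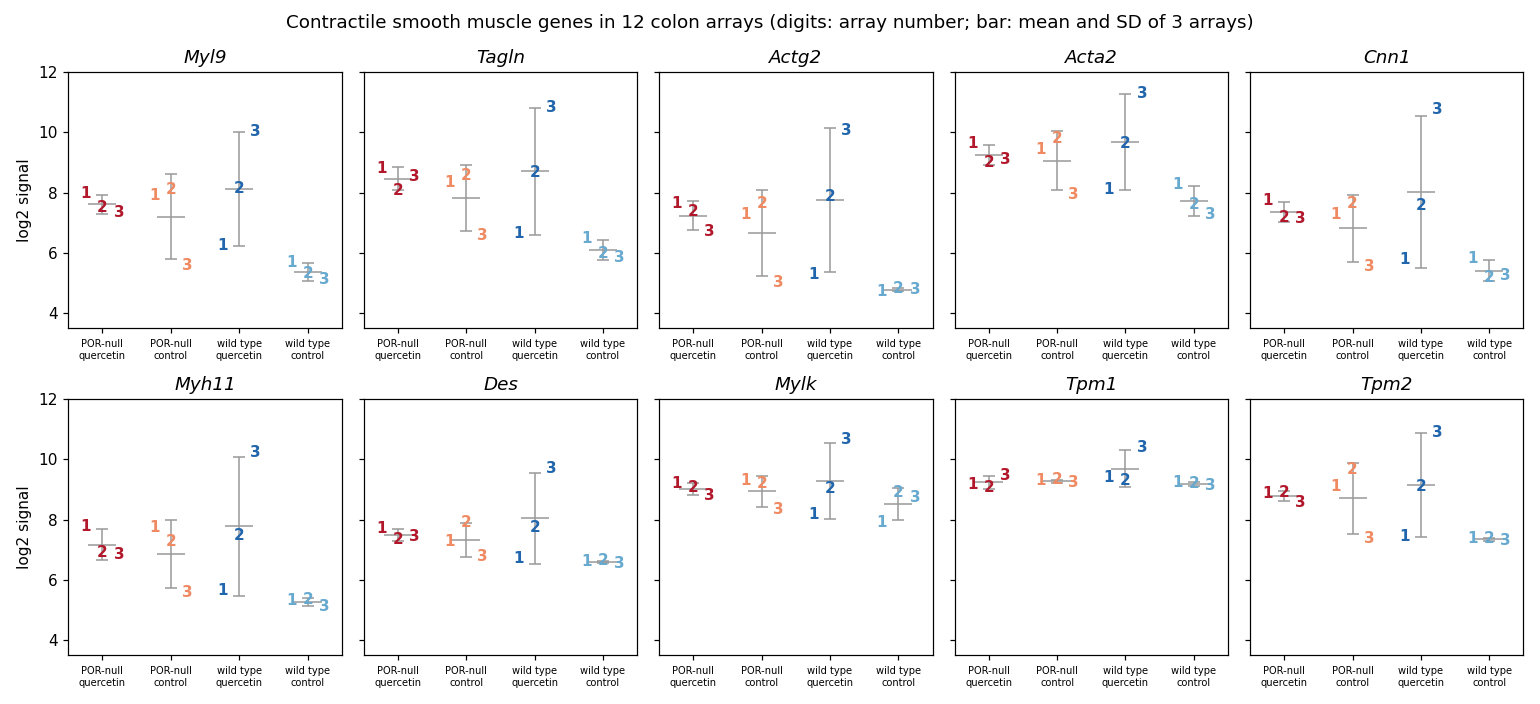
Log2 signal (y axis) of each of the 10 genes in the 4 groups (x axis), with a digit for each array, and a bar at the group mean with its SD over 3 arrays. Wild type quercetin array 3 is the highest array of all 10 genes, and the wild type control arrays are low and close together for most of them.

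Wild type quercetin array 3 was the highest array for 10 of the 10 genes, by 0.93 for Tpm1 to 3.00 for Cnn1 over the next array. The same 5 arrays, namely POR-null control array 3, wild type quercetin array 1 and the 3 wild type control arrays, were the lowest for 8 of the 10 genes, the exceptions being Mylk and Tpm1. The mean of the 10 genes was 8.45, 8.04 and 7.99 in POR-null quercetin arrays, 8.29, 8.51 and 6.80 in POR-null control arrays, 6.94, 8.45 and 10.48 in wild type quercetin arrays, and 6.74, 6.64 and 6.51 in wild type control arrays. These means lay at 3 levels, with 5 arrays up to 6.94, 6 arrays between 7.99 and 8.51, and 1 array at 10.48. In this bulk tissue, fewer cells of a type and less RNA per cell cannot be told apart.

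The span from the lowest to the highest array was 5.57 for Cnn1, which is 47.5-fold in signal, 5.35 for Actg2, 5.12 for Myh11, 4.96 for Tagln and 4.91 for Myl9. It was 4.01 for Acta2, 3.59 for Tpm2, 3.13 for Des, 2.76 for Mylk and 1.32, or 2.50-fold, for Tpm1. The median span of all 12393 genes was 0.45, and 9 of the 10 genes were among the 100 genes of the widest span, with Cnn1 at rank 3 and Tpm1 at rank 355. Since the genes were chosen with earlier results of these data known, the ranks describe them and are not a test. Much of this spread lay between pools of the same genotype and diet. The part of each gene's sum of squares that lay within groups ran from 47.0% for Myl9 to 82.8% for Mylk, with a median of 57.7%. Where groups do not differ, most of such a sum lies within them on average, since 12 arrays in 4 groups leave 8 residual degrees of freedom. These shares therefore describe the spread and do not measure whether the groups differ.

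The other 10 probe sets fell into wide and narrow spans. A second probe set of Tpm2 spanned 4.25, and 3 more sets, of Mylk and Tpm1, had a span of at least 1. The remaining 6, of Acta2, Myh11, Des, Tpm1 and, with 2 sets, Tpm2, spanned between 0.48 and 0.69 with means between 3.37 and 5.94. The wide spans of Acta2, Myh11 and Des were therefore seen with 1 of 2 probe sets each. For Myh11 the chosen set had the higher mean only through the groups in which it was high. In wild type control arrays it averaged 5.26, below 5.59 for the other set. That other set differed by 0.13 with quercetin in wild type mice. The values of Myh11 in the comparisons below rest on this choice.

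**Figure D2:**
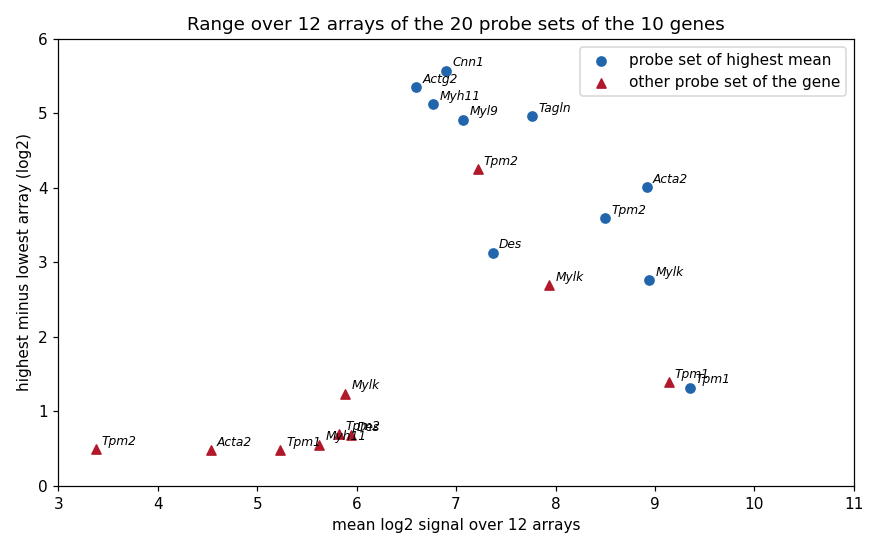
Span between the highest and the lowest of 12 arrays (y axis, log2) against mean log2 signal (x axis) for the 20 probe sets, with circles for the set of the highest mean of each gene and triangles for the others. The 6 sets with spans of 0.48 to 0.69 have means of 5.94 or less, and 1 Mylk set in that range of means has a wider span.

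In wild type mice, the contractile genes were higher with quercetin than without it, for 10 of 10 genes, with a median difference of 2.24 against 0.00 over all 22626 probe sets. None passed the test. Actg2 averaged 7.74 ± 2.39 with quercetin and 4.77 ± 0.06 on the control diet (SD, n = 3 each), a difference of 2.97, which is 7.84-fold in signal. Myl9 averaged 8.12 ± 1.90 with quercetin and 5.37 ± 0.29 on the control diet (SD, n = 3 each), a difference of 2.76 with a standard error of 0.77. Cnn1 and Tagln differed by 2.61 and 2.60, Myh11 by 2.52, Acta2 by 1.96, Tpm2 by 1.79, Des by 1.44, Mylk by 0.77 and Tpm1 by 0.51. In limma 0 of 10 genes had an adjusted p under 0.05, with adjusted p between 0.948 and 0.957, where 0% of all probe sets were called. At an unadjusted p under 0.05, 9 of 10 genes were higher (3.2% of all probe sets), with Mylk the exception, and in 7 of 10 every quercetin pool lay above every control pool (5.65% of all probe sets), with Acta2, Cnn1 and Mylk overlapping. The median difference was 1.20 without wild type quercetin array 3, the highest of all, and 3.17 without wild type quercetin array 1. Omitting array 3 left Actg2 at 1.81, Myl9 at 1.81, Tagln at 1.54, Myh11 at 1.30, Cnn1 at 1.26, Acta2 at 1.15, Tpm2 at 0.92, Des at 0.62, Tpm1 at 0.16 and Mylk at 0.08, with 6 genes at an unadjusted p under 0.05, where 2.55% of all probe sets were higher at that p.

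In POR-null mice the genes differed little between the diets. Means were higher with quercetin for 9 of 10 genes, Tpm1 being the exception at -0.05, and the median difference was 0.24 against 0.01 over all probe sets. Tagln, with the widest difference, averaged 8.46 ± 0.37 with quercetin and 7.82 ± 1.10 on the control diet (SD, n = 3 each), a difference of 0.64 with a 95% interval from -1.04 to 2.32. Actg2 differed by 0.59 and Cnn1 by 0.54, and the others by 0.41 or less. In limma 0 of 10 genes had an adjusted p under 0.05 (0% of all probe sets), 0 were higher at an unadjusted p under 0.05 (1.29% of all probe sets), and 0 were higher with no overlap of the groups (3.49% of all probe sets). The sign depended on 1 pool: the median became -0.23, with 9 genes lower, once POR-null control array 3 was left out. Omitting POR-null control array 1 or 2 gave 0.55, POR-null quercetin array 1 gave 0.05, and POR-null quercetin array 2 or 3 gave 0.36.

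On the control diet, means were higher in POR-null mice than in wild type mice for 10 of 10 genes, with a median difference of 1.38 against -0.01 over all probe sets. Actg2 averaged 6.65 ± 1.42 in POR-null mice and 4.77 ± 0.06 in wild type mice (SD, n = 3 each), a difference of 1.88. Myl9 averaged 7.20 ± 1.40 in POR-null mice and 5.37 ± 0.29 in wild type mice (SD, n = 3 each), a difference of 1.83 with a standard error of 0.77. Tagln differed by 1.72, Myh11 by 1.61, Cnn1 by 1.40, Tpm2 by 1.35, Acta2 by 1.34, Des by 0.73, Mylk by 0.43 and Tpm1 by 0.10. In limma 0 of 10 genes had an adjusted p under 0.05, with adjusted p between 0.734 and 0.956, where 0% of all probe sets were called. Only Myl9 and Tagln were higher at an unadjusted p under 0.05 (3.68% of all probe sets), and 4 of 10 genes, Tagln, Actg2, Myh11 and Des, were higher with no overlap (4.81% of all probe sets). Leaving out POR-null control array 3 gave a median of 2.03, with 10 of 10 genes not overlapping, where 13% of all probe sets did not overlap, and 6 at an unadjusted p under 0.05 (5.87% of all probe sets). Leaving out wild type control array 1, an array with acinar signal, gave 8 of 10 not overlapping (11.7% of all probe sets) and moved Mylk to 0.12. Without POR-null control array 2, Des differed by 0.43 and Tpm2 by 0.88. The count at an unadjusted p was 0 without wild type control array 2 or 3 or POR-null control array 1 or 2 (1.97% to 3.12% of all probe sets), and 1 without wild type quercetin array 2 or any POR-null quercetin array (3.4% to 3.59%). It was 6 when wild type quercetin array 1 was left out (3.77%) and 8 when wild type quercetin array 3 was (3.87%), since all groups share 1 estimate of error.

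On the quercetin diet, means were lower in POR-null mice than in wild type mice for 10 of 10 genes, with a median difference of -0.48 against -0.01 over all probe sets. Cnn1 averaged 7.35 ± 0.34 in POR-null mice and 8.02 ± 2.52 in wild type mice (SD, n = 3 each), a difference of -0.67 with a 95% interval from -2.62 to 1.28. Tpm1 averaged 9.24 ± 0.20 in POR-null mice and 9.69 ± 0.61 in wild type mice (SD, n = 3 each), a difference of -0.46. In limma 0 of 10 genes had an adjusted p under 0.05 (0% of all probe sets), 0 were lower at an unadjusted p under 0.05 (1.36% of all probe sets), and 0 were lower with no overlap (3.74% of all probe sets). The POR-null pools lay inside the range of the wild type pools for 9 of 10 genes, with Tpm1 the exception. Omitting wild type quercetin array 3 gave a median of 0.47, with 9 genes higher in POR-null mice. Without wild type quercetin array 1 it was -1.25, with 7 genes lower at an unadjusted p under 0.05 (2.03% of all probe sets) and 5 with no overlap (8.91%). At that p 1 gene was lower without wild type quercetin array 2 (1.56% of all probe sets) or POR-null quercetin array 3 (1.72%).

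The interaction, the quercetin difference in POR-null mice minus that in wild type mice, was negative for 10 of 10 genes, with a median of -1.87 against 0.01 over all probe sets. It was widest for Actg2, at -2.38 with a 95% interval from -5.17 to 0.40, and narrowest for Tpm1, at -0.56. In limma 0 of 10 genes had an adjusted p under 0.05 (0% of all probe sets), with an adjusted p of 0.998 for Myl9, whose unadjusted p of 0.052 was the smallest of the 10. At an unadjusted p under 0.05 there were 0 negative interactions (2.92% of all probe sets). Omitting wild type quercetin array 3 gave a median of -0.87 and put Mylk at -0.01. The count of negative interactions at an unadjusted p was 10 where wild type quercetin array 1 was omitted (3.68% of all probe sets), 6 where POR-null control array 3 was (4.73%), and 1 where wild type quercetin array 2 was (2.39%). The 4 comparisons of groups share arrays in pairs, so their values are not independent of each other.

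**Figure D3:**
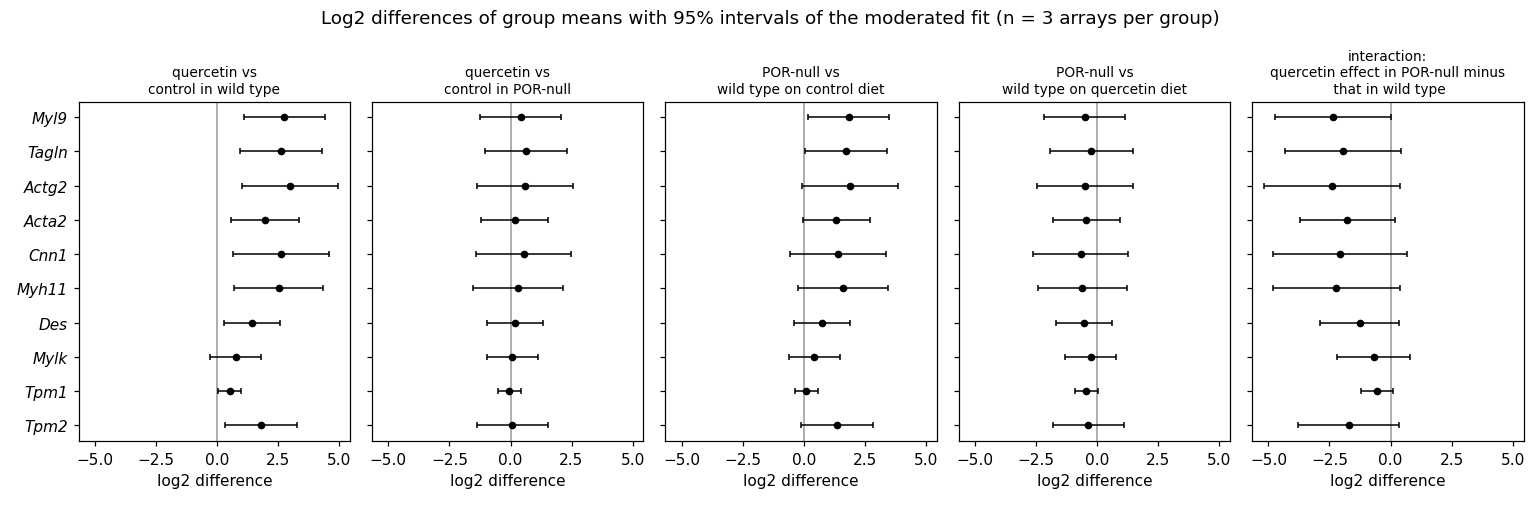
Log2 difference of group means (x axis) with its 95% interval from the moderated fit for each of the 10 genes (y axis), in a panel for each of the 4 comparisons and the interaction, from 3 arrays per group. The points lie above 0 for 10 of 10 genes with quercetin in wild type mice and in POR-null mice on the control diet, and below 0 for 10 of 10 in POR-null mice on the quercetin diet and for the interaction.

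Other structural genes of smooth muscle varied with them in part. Of 23 measured out of 30 listed, 18 were higher with quercetin in wild type mice, 9 of them at an unadjusted p under 0.05, where 3.2% of all probe sets were higher, and 0 at an adjusted p under 0.05 in limma. The median difference was 0.27. Omitting wild type quercetin array 3 gave 0.07 for that median, and omitting array 1 of the same group gave 0.41. Cald1, caldesmon, which holds actin and myosin apart until calcium rises, had 7.45, 6.91 and 6.74 in POR-null quercetin arrays, 7.87, 7.62 and 5.70 in POR-null control arrays, 6.37, 7.37 and 9.59 in wild type quercetin arrays, and 5.95, 5.25 and 4.94 in wild type control arrays. Its wild type difference was 2.40, and those of Csrp1, a LIM protein of muscle, Flna, the actin cross-linker filamin A, and Pdlim3, a protein of the dense bodies and Z discs of muscle, were 1.49, 1.31 and 1.25. In POR-null mice on the control diet, 15 of the 23 were higher than in wild type mice, with a median of 0.15.

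The signalling genes that switch contraction showed smaller differences. Of 17 measured genes of calcium entry and release, RhoA and nitric oxide signalling, 13 were higher with quercetin in wild type mice, 0 of them at an unadjusted p under 0.05 in limma, and the median was 0.11, or 0.03 without wild type quercetin array 3. Cacna1c, the pore of the L-type calcium channel, averaged 5.24 with quercetin and 4.99 on the control diet. Arhgef1, an activator of RhoA, differed by 0.26, Gucy1a1, a subunit of the nitric oxide receptor, by 0.15, and Chrm3, a muscarinic receptor of gut muscle, by 0.12. Of 14 transcription factors of smooth muscle, 10 were higher, with a median of 0.04 that was 0.00 without wild type quercetin array 3, and 1, Foxf2, was higher at an unadjusted p under 0.05, where 3.2% of all probe sets were. Foxf2 differed by 0.23, Meis1 by 0.26 and Gata6 by -0.17. Over the 12 arrays Foxf2 lay between 3.29 and 3.79 and Meis1 between 3.09 and 3.89. Both are below the lower quartile of every array, 4.66 to 4.78, and the highest Meis1 value was that of wild type quercetin array 3. Srf, serum response factor itself, averaged 7.50 with quercetin and 7.62 on the control diet and stayed between 7.40 and 7.77 over the 12 arrays.

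Paralogues served to set the smooth muscle forms against their relatives. Of 13 nonmuscle paralogues, 6 were higher and 7 lower with quercetin in wild type mice, with a median of -0.01 and with Cnn2, a calponin of nonmuscle cells, higher by 0.67 at an unadjusted p under 0.05. Of 18 striated muscle paralogues, 9 were higher and 9 lower, with a median of 0.02, and their list mean stayed between 4.77 and 5.03 over the arrays. The contractile genes of smooth muscle and the heart or skeletal muscle forms differed in span over the same arrays, 3.97 for the mean of the 10 genes against 0.26 for that list. The mean of the striated list lay near the lower quartiles of the arrays, 4.66 to 4.78. How far low signal narrowed its span was not tested.

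Over the 12 arrays, the 10 other genes most like the mean of the contractile genes were Smtn, Flna, Pdlim3, Cald1, Rgs5, Csrp1, Hspb1, Dmpk, Palld and Mrvi1, with Pearson correlations from 0.987 for Smtn to 0.940 for Mrvi1. Smtn encodes smoothelin of contractile smooth muscle, Rgs5 a regulator of G protein signalling in pericytes, Hspb1 a small heat shock protein, Dmpk a kinase of muscle, Palld the actin scaffold palladin and Mrvi1 a target of cGMP-dependent kinase. Without wild type quercetin array 3 and wild type control array 3, the arrays farthest from the median, the correlations of these 10 ran from 0.862 to 0.974. The arrays lie at separate levels, so that such a value describes mainly the split between levels. Of 12383 genes, 76 had a correlation above 0.8 and the median was 0.00; among the 23 other structural genes it was above 0.8 for 11, among the 9 pericyte and mural genes for 2, among the 17 enteric neuron and glia genes for 2, among the 14 transcription factors for 1, among the 21 fibroblast genes for 1 and among the 17 signalling genes for 0. The least alike were Pdia4 at -0.92, Galnt10 at -0.87, Necap1 at -0.87, Galntl5 at -0.86 and Arf3 at -0.84, and their spans were 0.31 to 0.71.

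Markers of other cells under the epithelium varied with the contractile genes to different degrees, and their part in the differences above was not tested. Of 9 pericyte and mural genes, 6 were higher with quercetin in wild type mice, with a median of 0.12, and this median was 0.03 when wild type quercetin array 3 was left out and 0.25 when array 1 was. The list mean was 5.35 to 5.40 in POR-null quercetin arrays, 5.23 to 5.47 in POR-null control arrays, 5.20 to 5.80 in wild type quercetin arrays and 4.93 to 5.19 in wild type control arrays. Mcam, an adhesion molecule of pericytes and endothelium, was higher by 0.59 with the smallest unadjusted p of the list. Rgs5 had 7.80, 7.70 and 7.64 in POR-null quercetin arrays, 8.51, 8.44 and 5.77 in POR-null control arrays, 6.45, 7.60 and 9.93 in wild type quercetin arrays, and 5.97, 5.87 and 4.87 in wild type control arrays. Rgs5 therefore split the pools as the contractile genes did.

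Fibroblast and matrix genes followed only in part. Of 21 measured, 20 were higher with quercetin in wild type mice, with a median of 0.60, or 0.38 without wild type quercetin array 3. At an unadjusted p under 0.05 in limma, 9 of the 21 were higher (3.2% of all probe sets). On the control diet 19 were higher in POR-null than in wild type mice, with a median of 0.54, or 0.22 without wild type control array 3. Their list mean was 6.57, 6.15 and 6.70 in POR-null quercetin arrays, 6.90, 6.70 and 6.08 in POR-null control arrays, 6.64, 6.38 and 6.98 in wild type quercetin arrays, and 6.58, 5.95 and 5.50 in wild type control arrays. Wild type quercetin array 1 and wild type control array 1, which were low for the contractile genes, were not low for this list. Among its genes, Ogn, osteoglycin, and Dpt, dermatopontin, both small matrix proteins, were higher with quercetin in wild type mice by 1.35 and 1.33.

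**Figure D4:**
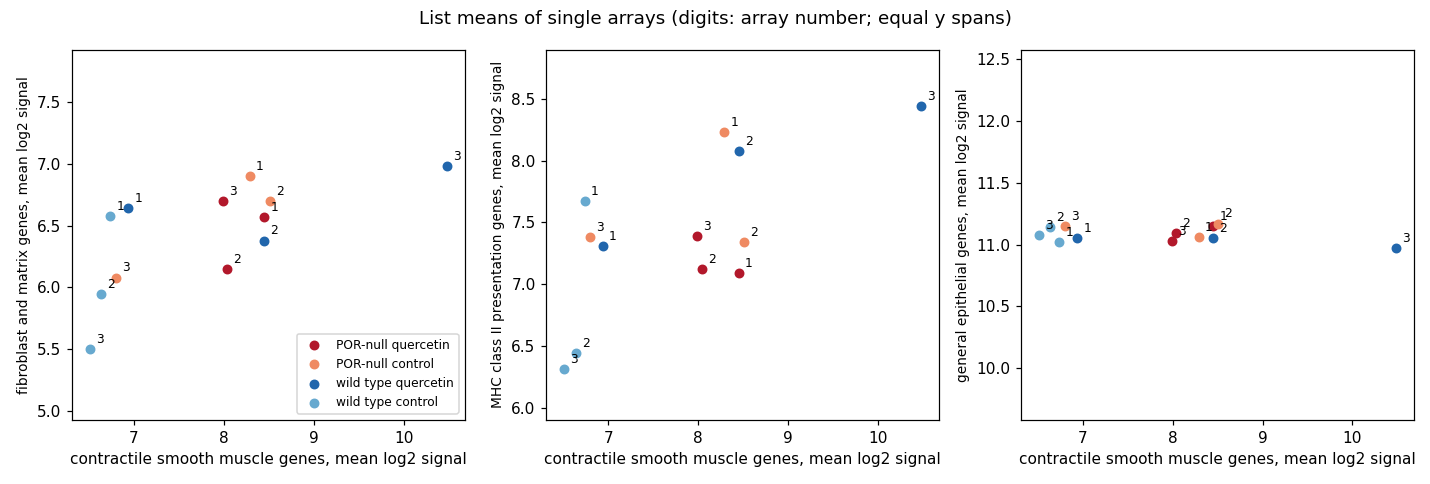
Mean log2 signal of fibroblast and matrix genes (left), MHC class II genes (middle) and general epithelial genes (right) on the y axes against the mean of the 10 contractile genes on the x axes, with a point and digit for each array and equal spans of the y axes. The epithelial mean stays between 10.97 and 11.17, and the fibroblast mean of wild type quercetin array 1, at 6.64, is above that of wild type quercetin array 2, at 6.38, while the contractile means are 6.94 and 8.45.

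Genes of the nerve plexus and of other cells of the gut wall did not follow the contractile genes in every array. Of 17 enteric neuron and glia genes, 11 were higher with quercetin in wild type mice, with a median of 0.04, and their list mean lay between 5.26 and 5.54 over all arrays. Stmn2, a microtubule protein of neurons, averaged 5.40 with quercetin and 5.11 on the control diet in wild type mice. Of 14 endothelial genes, 14 were higher with quercetin in wild type mice, with a median of 0.14 and a list mean between 5.20 and 5.64 over all arrays. The 3 measured genes of interstitial cells of Cajal, the pacemaker cells of gut muscle, had a list mean of 6.45 in wild type quercetin array 3, where the contractile genes were highest, and of 7.30 in wild type quercetin array 1, where they were low. For 5 mesothelial genes, which mark the outer lining of the gut wall, the list mean lay between 4.49 and 4.68. That is near or below the lower quartiles of the arrays, 4.66 to 4.78, and several enteric neuron genes also lay below these. How far low signal narrowed the spans of these lists was not tested.

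Genes of MHC class II presentation also differed between the pools. With quercetin in wild type mice 8 of 8 were higher, with a median of 1.40, and on the control diet 8 of 8 were higher in POR-null than in wild type mice, with a median of 1.11. At an unadjusted p under 0.05 in limma, 6 of 8 were higher with quercetin in wild type mice (3.2% of all probe sets). In 0 of 8 did every quercetin pool lie above every control pool (5.65% of all probe sets). The interaction had a median of -1.89, with 6 of 8 negative at that p (2.92% of all probe sets). For the contractile genes these were -1.87 and 0 of 10. Their list mean was 7.09, 7.12 and 7.39 in POR-null quercetin arrays, 8.23, 7.34 and 7.38 in POR-null control arrays, 7.31, 8.08 and 8.44 in wild type quercetin arrays, and 7.67, 6.44 and 6.31 in wild type control arrays. Wild type control array 1 was thus above every POR-null quercetin array for class II genes and below every one of them for the contractile genes. Of the lymphoid and myeloid lists, B and plasma cell genes had higher means with quercetin in wild type mice for 9 of 10, with a median of 0.82 (0.47 without wild type quercetin array 2), as were 9 of 12 macrophage and dendritic cell genes, with a median of 0.21, and 11 of 11 T and NK cell genes, with a median of 0.17 (0.07 without wild type quercetin array 3). At an unadjusted p under 0.05 in limma, 4 of 10, 1 of 12 and 0 of 11 of these were higher (3.2% of all probe sets). Negative interactions at that p numbered 8, 3 and 0 (2.92% of all probe sets).

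Epithelial lists had small median differences in the same comparison, while single genes of them moved more. With quercetin in wild type mice, 10 of 15 general epithelial genes were lower, with a median of -0.05, as were 11 of 13 absorptive colonocyte genes, also with a median of -0.05, while 5 of 9 goblet cell genes were higher, with a median of 0.17. The absorptive median was -0.24 without wild type quercetin array 1. Single differences ran from -0.52 to 0.24 for absorptive genes and from -0.74 to 0.47 for goblet cell genes. At an unadjusted p under 0.05 in limma, 1 goblet cell gene was lower (1.94% of all probe sets). Pancreatic acinar genes were lower for 11 of 12, with a median of -1.13. Of their 4 highest arrays, listed above, POR-null quercetin array 2 and wild type quercetin array 2 had contractile means of 8.04 and 8.45. The other 2 were low for the contractile genes. Without wild type control array 1 the acinar median was -0.34, and without wild type control array 3 it was -1.87. Over all these lists 0 genes had an adjusted p under 0.05 in limma in any of the comparisons.

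**Figure D5:**
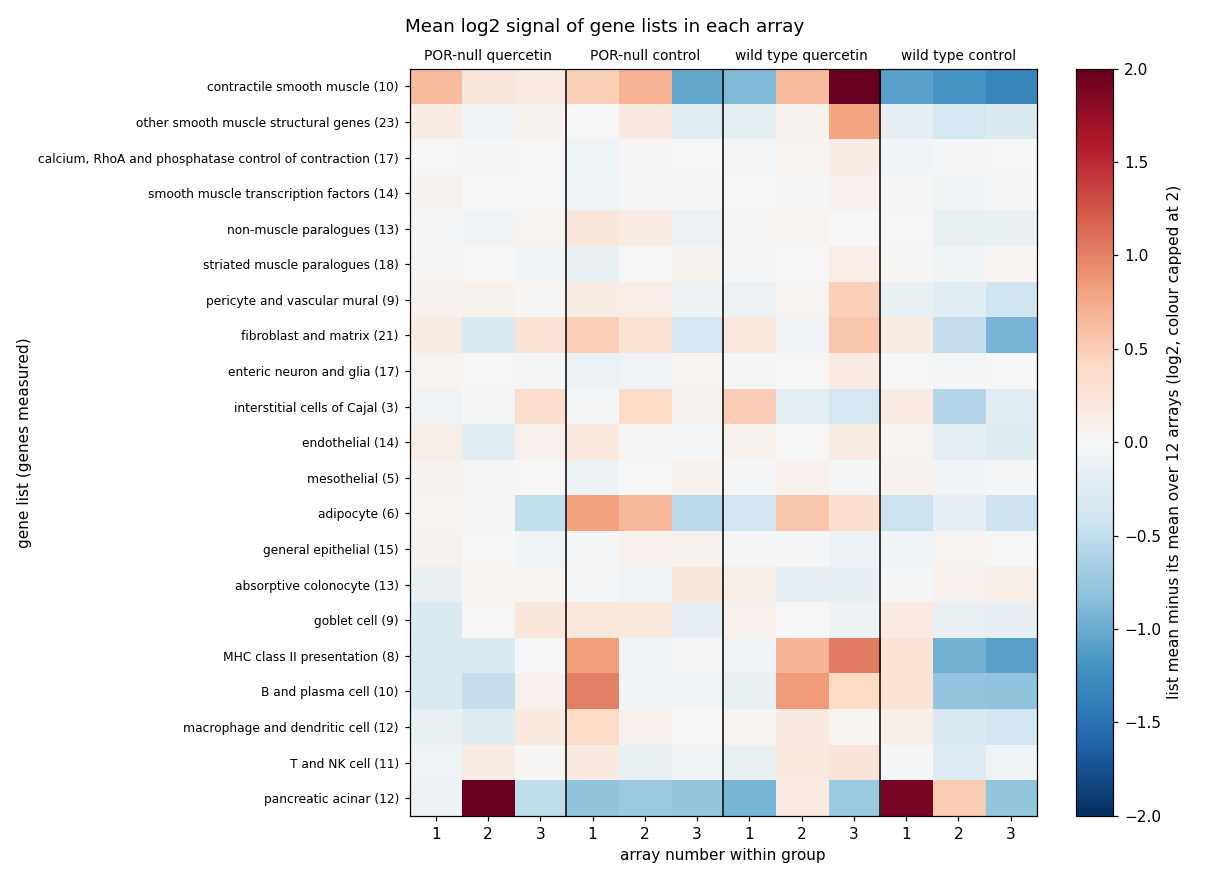
Mean log2 signal of each gene list (down the page, with the number of genes measured) in each array (across, by group), as the difference from the list's mean over 12 arrays and with the colour capped at 2. The contractile genes have the widest span of these lists, 3.97, followed by the acinar genes, 3.77, whose highest array is POR-null quercetin array 2.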

How the data were processed

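RNA pools were measured on Affymetrix 430A mouse arrays. The values are log2 signals as the authors deposited them. MAS5 and RMA are named in the submitters' processing notes, and which of them made the table, with which version, is not given in the sources used here. That the scale is log2 was inferred: the values run from 2.70 to 14.09, above the natural logarithm of a 16-bit scanner's maximum, 11.1.

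Of 22690 probe sets, 64 controls were left out and 22626 tested with no filter. Names came from the supplied array annotation, in which 20380 probe sets had 1 symbol, 691 several and 1555 none. Group means were compared with limma 3.58.1 under R 4.3.3 (lmFit, then eBayes with its trend option) in 1 fit of 12 arrays, with 8 residual and 12.91 total degrees of freedom. Tests were two-sided, adjusted by Benjamini and Hochberg over all probe sets, with a threshold of 0.05, and measure only the spread between pools. The fit was tested on simulated data.

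The members and lists were chosen with earlier results of these data known. All members are named, with up to 4 genes of each other list, those of the smallest unadjusted p with quercetin in wild type mice. The 10 genes most like the members' mean and the 5 least like it are named as well. Adjusted p is given for no list alone.

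For same-numbered arrays of POR-null and wild type mice on the control diet, deviations from the group means correlated weakly, at 0.193, 0.106 and 0.26. The rule used takes numbers as pairs where each correlation exceeds 0.1, but values this low do not establish a pairing. Correlations between the other groups did not all exceed 0.1. Of 18 same-numbered pairs 6 did, and the labels give no litter or day for a number. Alternatives were each array left out, the number as a block, quantile normalization, median centring, a signal filter, no trend, fits of the compared groups only, array weights and all probe sets of a gene. The number as a block within the control diet groups and the counts and list medians without single arrays were added after seeing the data.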

Additional observations from a re-analysis of the deposited data

How the results depend on the processing

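Of 1000 gene differences recomputed, 973 kept their direction and side of the threshold, 26 reversed and 1 passed it. Many of the 1000 could not change direction, so the 973 are not a measure of stability. Leaving out an array of a group outside a comparison leaves the differences of that comparison as they were. So do the block, no trend, the signal filter and fits of the compared groups only. All 26 reversals were for quercetin in POR-null mice or for POR-null against wild type on the quercetin diet. With the replicate block, the pairing by number left the median differences at 2.24 and 0.24 with quercetin in wild type and POR-null mice, 1.38 and -0.48 for POR-null against wild type on the control and quercetin diets, and -1.87 for the interaction, with 0 of 10 genes called in each. Every group holds each number once, so the block could not change these medians. The block within the control diet groups also called 0 of 10. With array weights, 1 of 10 genes, Myl9, was called for POR-null against wild type on the control diet, where 399 of 22626 probe sets were called. With all probe sets of a gene averaged, the median for quercetin in wild type mice was 1.18, that for POR-null against wild type 0.77 on the control diet and -0.30 on the quercetin diet, and the interaction -1.08, since flat probe sets enter. Leaving out single arrays gave 1.20 to 3.17 for quercetin in wild type mice.

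For quercetin in POR-null mice, array weights reversed Myl9 (-0.15), Actg2 (-0.032), Acta2 (-0.28), Des (-0.17), Mylk (-0.089) and Tpm2 (-0.51), and the cause was not tested. With single arrays left out, this difference ran from -0.40 to 0.86 for Myl9, -0.23 to 1.09 for Actg2, -0.38 to 0.55 for Acta2, -0.10 to 0.95 for Cnn1, -0.33 to 0.74 for Myh11, -0.10 to 0.47 for Des, -0.23 to 0.25 for Mylk, -0.16 to 0.037 for Tpm1 and -0.59 to 0.55 for Tpm2. For POR-null against wild type on the quercetin diet it ran from -1.46 to 0.43 for Myl9, -1.27 to 0.82 for Tagln, -1.73 to 0.66 for Actg2, -1.24 to 0.37 for Acta2, -1.80 to 0.69 for Cnn1, -1.68 to 0.62 for Myh11, -1.21 to 0.28 for Des, -0.83 to 0.42 for Mylk and -1.21 to 0.51 for Tpm2.

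Over all probe sets, where 0 were called, 399 were called for POR-null against wild type on the control diet with array weights, 47 with the block within those groups and 41 without wild type control array 1, and at most 3 elsewhere. With 3 pools a group, the intervals of the group differences were widest for Actg2 and Cnn1 and narrowest for Tpm1. No value for background was used, so how far low signals compress differences was not tested.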

Other observations

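Of 6 measured adipocyte genes, Fabp4 and Adipoq were high in some of the pools that were high for the contractile genes. Fabp4, a fatty acid carrier of fat cells, had 6.27, 5.75 and 4.98 in POR-null quercetin arrays, 7.57, 7.38 and 4.19 in POR-null control arrays, 5.38, 6.78 and 6.49 in wild type quercetin arrays, and 4.58, 4.74 and 3.53 in wild type control arrays. Adipoq, adiponectin, had 4.44, 5.15 and 3.93 in POR-null quercetin arrays, 7.27, 6.44 and 3.95 in POR-null control arrays, 4.08, 6.54 and 5.63 in wild type quercetin arrays, and 3.90, 4.11 and 4.04 in wild type control arrays. Both were highest in POR-null control array 1, whereas the contractile genes were highest in wild type quercetin array 3, and both were low in POR-null control array 3 and the wild type control arrays, as the contractile genes were. Cidec, a lipid droplet protein, and Lpl, lipoprotein lipase, differed by -0.23 and -0.13 with quercetin in wild type mice. In that comparison 3 of the 6 genes were higher and 3 lower, with a median of 0.01, and 0 had an adjusted p under 0.05 in limma, where 1 was higher at an unadjusted p under 0.05, as were 3.2% of all probe sets.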
